A study of Drosophila melanogaster with 6 samples.

Results

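The 9 genes described here are the mitotic cyclins CycA, CycB and CycB3, their kinase partner Cdk1, the Cdc25 phosphatases stg (string) and twe (twine), and the mitotic kinases polo, aurA and aurB. They were picked by name, and all 9 were found among the 15682 genes of the count table by their FlyBase identifiers. The 6 RNA-seq libraries came from fat bodies of adult Drosophila melanogaster females, 7 to 10 days old, of the white Dahomey stock carrying Wolbachia. In the FB-Dp110DN group (3 libraries) a constitutive fat body GAL4 driver switched on a dominant-negative Dp110. Dp110 is the catalytic part of the fly class I phosphoinositide 3-kinase, which relays insulin signals. The FB-GAL4 group (3 libraries) carried the same driver without the transgene. By the labels, fat bodies of 5 flies were pooled for a library and the preparations were spread over separate dates, and by the study's methods a mutant and a control sample were processed together on a day. The comparison asks how lowering Dp110 activity in this tissue alters transcript levels.

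Entry into mitosis is set by Cdk1 bound to a cyclin. Wee1 and Myt1 hold this complex inactive by phosphorylating Cdk1, Cdc25 phosphatases such as stg and twe remove the phosphates, and the anaphase-promoting complex (APC/C) ends mitosis by marking cyclins for destruction. Polo and the Aurora kinases act on centrosomes, spindle and chromosomes during the same window. Fat body cells of the adult fly are large polyploid cells that are not known to divide, whereas the ovary, which lies next to the abdominal fat body, holds dividing germ cells and follicle cells and loads eggs with transcripts of these same genes.

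All 9 genes were lower in FB-Dp110DN than in FB-GAL4, and for each of them the lowest FB-GAL4 library lay above the highest FB-Dp110DN library. The group means differed between 1.62-fold (CycA) and 2.07-fold (twe). The fitted log2 fold changes ran from -1.06 to -0.72 with a median of -0.82, beside a median of 0.04 over all 10398 tested genes. Under the edgeR quasi-likelihood test with libraries of the same number as a block, 0 of the 9 passed a Benjamini-Hochberg adjusted p-value of 0.05, with adjusted values between 0.157 and 0.171. In that test 0.0289% of all tested genes were called, 3 in number, of which 0 (0%) were lower. The unadjusted edgeR p-value was under 0.05 for 9 of 9, where 12.5% of all tested genes were lower at that level. Groups that did not overlap, with FB-Dp110DN lower, were found for 21.0% of all tested genes. DESeq2's Wald test, also blocked by number, called 8 of the 9 as lower, all but CycA, against 3.39% of all tested genes. The call therefore differed between the tools, while the direction did not.

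Values are CPM, a gene's share of the counts of its library expressed per 1e6 counts, after scaling by TMM factors, which adjust for differences in RNA make-up between libraries. Totals ranged from 22607341 to 36870161 counts per library. Pi3K92E, the gene of Dp110, whose counts can include reads from the transgene, stood at 343 to 1246 CPM in FB-Dp110DN and at 81.0 to 94.0 CPM in FB-GAL4, so each library lay on the side of its label. Its log2 fold change was 3.05 (SE 0.40), with adjusted p-values of 0.157 in edgeR and 5.95e-17 in DESeq2. The edgeR test thus did not call this gene either, so a gene not called there is not shown to be unchanged. Fat body markers were present in all libraries, and none of the 10 was at 0. Their summed level was 56122 to 74352 CPM in FB-Dp110DN. In FB-GAL4 it was 69148, 54175 and 23373 CPM in replicates 1, 2 and 3, so replicate 3 was the lowest library. The largest parts of this sum were the yolk protein genes Yp1, Yp2 and Yp3, with means over all libraries of 22640, 14177 and 12909 CPM. Follicle cells of the ovary also transcribe these genes, so the sum does not separate fat body from ovary. Markers of other tissues were present too. In replicate 3 the muscle markers summed to 35898 CPM in FB-Dp110DN and 18762 CPM in FB-GAL4, against 5046 to 7813 CPM in the other libraries. Gut markers were lowest in replicate 3, at 4148 CPM in FB-Dp110DN and 4253 CPM in FB-GAL4, against 9455 to 18268 CPM in the other libraries.

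**Figure D1:**
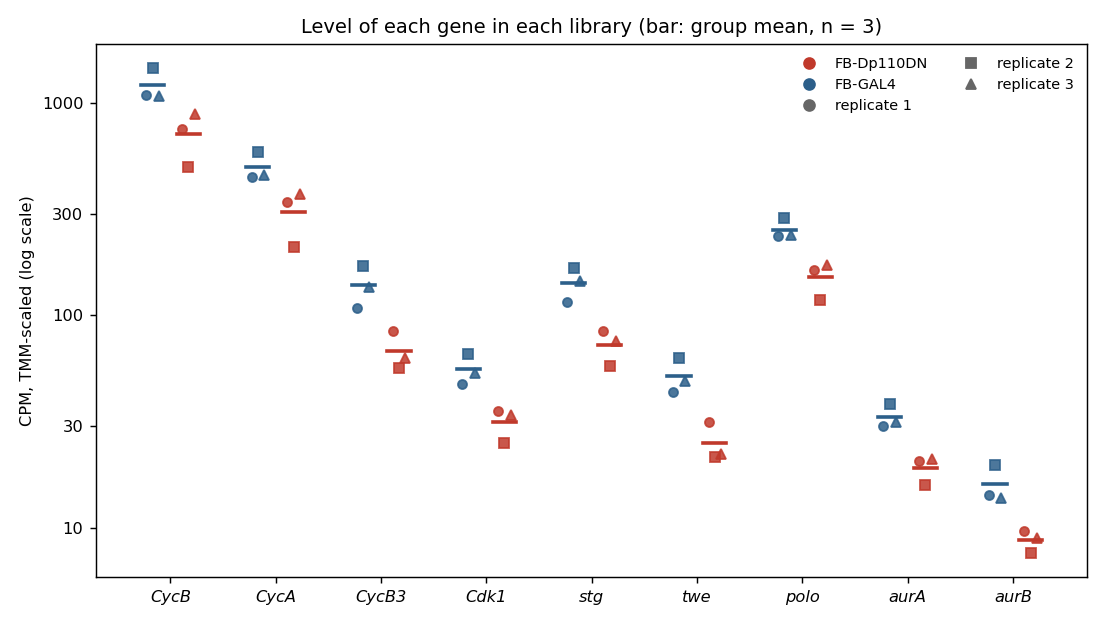
CPM of each of the 9 genes in each library on a log axis, with a bar at the group mean and a symbol for each replicate number. Every FB-Dp110DN point lies below every FB-GAL4 point of the same gene, replicate 2 of FB-GAL4 is the highest library for 9 of 9 genes, and replicate 2 of FB-Dp110DN the lowest. CPM is not per length, so heights are comparable within a gene only.

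CycB (FBgn0000405, arm 2R), the main B-type cyclin of fly mitosis, was the most abundant of the set. It had 757, 503 and 886 CPM in FB-Dp110DN replicates 1, 2 and 3 and 1099, 1464 and 1088 CPM in FB-GAL4. The groups did not overlap, although replicate 3 of FB-Dp110DN came within 1.23-fold of the lowest control. The means were 716 ± 195 and 1217 ± 214 CPM (SD, n = 3), a log2 fold change of -0.79 (SE 0.27). The adjusted p-values were 0.162 in edgeR and 0.0390 in DESeq2.

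CycA (FBgn0000404, arm 3L), the cyclin that flies require for entry into mitosis, followed CycB closely. Its levels were 341, 209 and 375 CPM in FB-Dp110DN and 451, 588 and 458 CPM in FB-GAL4. The lowest control was 1.20-fold above the highest FB-Dp110DN library, the narrowest gap of the 9. The log2 fold change was -0.72 (SE 0.26), and it passed in neither test, with adjusted p-values of 0.171 in edgeR and 0.0593 in DESeq2.

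CycB3 (FBgn0015625, arm 3R), a cyclin needed in female meiosis and at anaphase, showed a larger difference. It stood at 84.9, 56.5 and 62.7 CPM in FB-Dp110DN against 108, 172 and 136 CPM in FB-GAL4. Replicate 3 of FB-Dp110DN was not raised here as it was for CycA and CycB. The log2 fold change was -1.03 (SE 0.25), with adjusted p-values of 0.157 in edgeR and 0.00750 in DESeq2.

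Cdk1 (FBgn0004106, arm 2L), the catalytic partner of these cyclins, had 35.5, 25.1 and 33.9 CPM in FB-Dp110DN and 47.3, 66.1 and 53.8 CPM in FB-GAL4. Of all tested genes its profile over the 6 libraries lay closest to the mean profile of the 9 genes, to which it contributes. The means were 31.5 ± 5.58 and 55.7 ± 9.54 CPM (SD, n = 3). The log2 fold change was -0.82 (SE 0.21), with adjusted p-values of 0.157 in edgeR and 0.0210 in DESeq2.

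The Cdc25 phosphatases were among the members with the largest differences. stg (FBgn0003525, arm 3R), which drives mitosis in embryonic and somatic cells, stood at 84.9, 57.7 and 75.4 CPM in FB-Dp110DN and at 116, 168 and 145 CPM in FB-GAL4. For stg the log2 fold change was -0.98 (SE 0.22), with adjusted p-values of 0.157 in edgeR and 0.00606 in DESeq2. twe (FBgn0002673, arm 2L), the Cdc25 of meiosis in the germline, stood at 31.5, 21.5 and 22.3 CPM against 43.7, 63.3 and 49.3 CPM. Its groups were 1.39-fold apart at the nearest libraries, and its mean was 2.07-fold higher in FB-GAL4. The log2 fold change was -1.06 (SE 0.22), with adjusted p-values of 0.157 in edgeR and 0.00418 in DESeq2, the lowest of the 9 in DESeq2. In the later annotation BDGP6, 4.12% of the exonic bases of twe are shared with EndoGI on the opposite strand, and whether reads were counted by strand is not given in the sources used here.

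polo (FBgn0003124, arm 3L), the founding member of the Polo-like kinases, had 164, 118 and 174 CPM in FB-Dp110DN and 236, 287 and 239 CPM in FB-GAL4. For polo the log2 fold change was -0.75 (SE 0.20), with adjusted p-values of 0.157 in edgeR and 0.0198 in DESeq2. aurA (FBgn0000147, arm 3R), the Aurora kinase of centrosomes and spindle poles, had 20.6, 15.9 and 21.0 CPM against 29.97, 38.3 and 31.4 CPM. aurB (FBgn0024227, arm 2L), the Aurora kinase of the chromosomal passenger complex, was the least abundant, with 9.64, 7.61 and 8.90 CPM against 14.3, 19.8 and 13.9 CPM. The Aurora genes had the widest gaps between groups, 1.43-fold for aurA and 1.44-fold for aurB at the nearest libraries. Their log2 fold changes were -0.80 (SE 0.19) and -0.86 (SE 0.22). The adjusted p-value was 0.157 for each in edgeR, and the DESeq2 adjusted p-values were 0.0201 and 0.0279. Of the exonic bases of aurA in BDGP6, 9.70% are shared with CG12213 on the opposite strand. The value 0.157 was shared by 1253 tested genes, since the adjustment ties neighbours in rank.

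Per kilobase of exon (RPKM, with exon lengths from BDGP6), the order of levels in FB-GAL4 was CycB at 399 ± 70.3, CycA at 171 ± 26.4 and polo at 85.2 ± 9.59 (SD, n = 3). Cdk1, CycB3 and stg followed with means of 51.5, 48.1 and 46.6 RPKM, and their libraries overlapped, at 43.7 to 61.1, 37.6 to 59.5 and 37.9 to 54.8 RPKM. twe at 21.9 ± 4.23 and aurA at 21.1 ± 2.84 RPKM were likewise not separated, and aurB came last at 13.5 ± 2.80. In FB-Dp110DN the same steps were seen, from CycB at 235 ± 63.9 and CycA at 106 ± 29.9 RPKM to aurB at 7.37 ± 0.867, with Cdk1, stg and CycB3 overlapping between 18.8 and 32.8 RPKM, and aurA and twe between 9.04 and 13.3 RPKM. CycB transcripts made up 49.5% to 53.4% of the counts of the 9 genes in FB-Dp110DN and 49.1% to 51.2% in FB-GAL4.

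The libraries of the same number were then compared pair by pair. All 9 genes were lower in all 3 pairs, a pattern that 27.7% of tested genes had. Pair 2 gave the largest difference for 9 of 9, with log2 values from -1.60 to -1.27. Pair 1 gave -0.56 to -0.35, a narrow band over genes whose levels span CycB to aurB.

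Pair 3 was where the genes parted. CycA and CycB differed by only -0.29 and -0.30 on the log2 scale, polo by -0.46, aurA by -0.58, aurB by -0.63 and Cdk1 by -0.67. stg, CycB3 and twe differed by -0.94, -1.12 and -1.14. The spread over pairs (SD, n = 3 pairs) ran from 0.41 for aurA to 0.66 for CycA, so that for CycA it was nearly as large as the mean difference of -0.73. Without replicate 2 the fitted log2 fold changes of CycA and CycB shrank to -0.35 and -0.42, and the lowest edgeR adjusted p-value of the 9 was 0.386. Without replicate 3, edgeR called 9 of 9, with adjusted p-values from 0.00105 to 0.0170, against 4.71% of tested genes called lower. In that fit the prior degrees of freedom were infinite, so every gene was given a shared quasi-dispersion and the p-value does not measure the spread of the single gene.

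**Figure D2:**
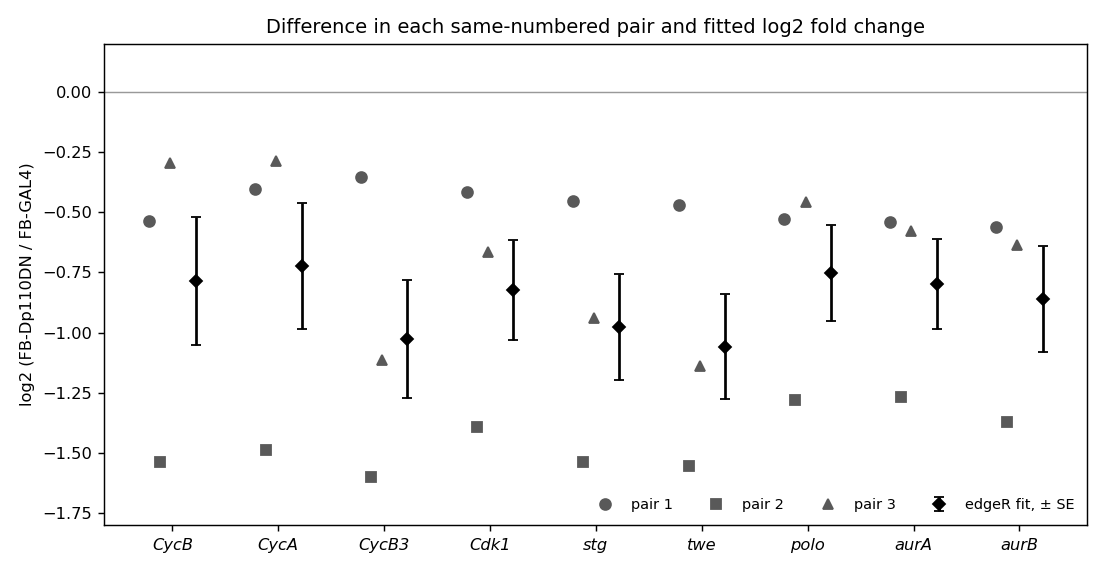
Difference between FB-Dp110DN and FB-GAL4 in log2 CPM for each same-numbered pair (symbols), and the edgeR log2 fold change with its SE (diamonds). Pair 2 lies lowest for all 9 genes, between -1.60 and -1.27, while pair 3 spreads from -1.14 for twe to -0.29 for CycA.

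Ratios of counts between members within a library do not depend on library scaling, and they are given for pairs of genes that act together. The ratio of CycA to CycB was 0.450, 0.416 and 0.423 in FB-Dp110DN and 0.410, 0.401 and 0.421 in FB-GAL4, with overlapping groups. stg to twe was 2.69, 2.69 and 3.38 in FB-Dp110DN and 2.65, 2.65 and 2.94 in FB-GAL4. In each group the ratio was nearly equal in replicates 1 and 2 and highest in replicate 3. aurA to aurB was 2.14, 2.08 and 2.35 against 2.10, 1.94 and 2.26, again highest in replicate 3 of each group.

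CycB to Cdk1 stood at 21.3, 20.05 and 26.1 in FB-Dp110DN and at 23.2, 22.1 and 20.2 in FB-GAL4. polo to Cdk1 stood at 4.62, 4.71 and 5.12 against 5.00, 4.34 and 4.43. CycB3 to CycB stood at 0.112, 0.112 and 0.0707 in FB-Dp110DN against 0.0987, 0.117 and 0.125 in FB-GAL4. Replicate 3 of FB-Dp110DN was thus lowest for CycB3 relative to CycB and highest for CycB relative to Cdk1. That library was also the highest for stg to twe, polo to Cdk1 and aurA to aurB.

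None of the 6 ratios passed an exact 2-sided permutation test over libraries, with p between 0.2 and 0.9 and adjusted p between 0.6 and 0.9. The log2 differences ran from -0.23 (CycB3 to CycB) to 0.08 (stg to twe). Within same-numbered pairs, 3 of the 6 ratios were higher in FB-Dp110DN in all 3 pairs, with log2 differences of 0.134, 0.0515 and 0.00689 for CycA to CycB, 0.0211, 0.0166 and 0.202 for stg to twe, and 0.0241, 0.106 and 0.0571 for aurA to aurB. An exact sign-flip permutation test over the pairs gave p = 0.25 for each of these, and adjusted p = 0.5. The smallest p is 0.1 over libraries and 0.25 over pairs, so no ratio could have passed.

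**Figure D3:**
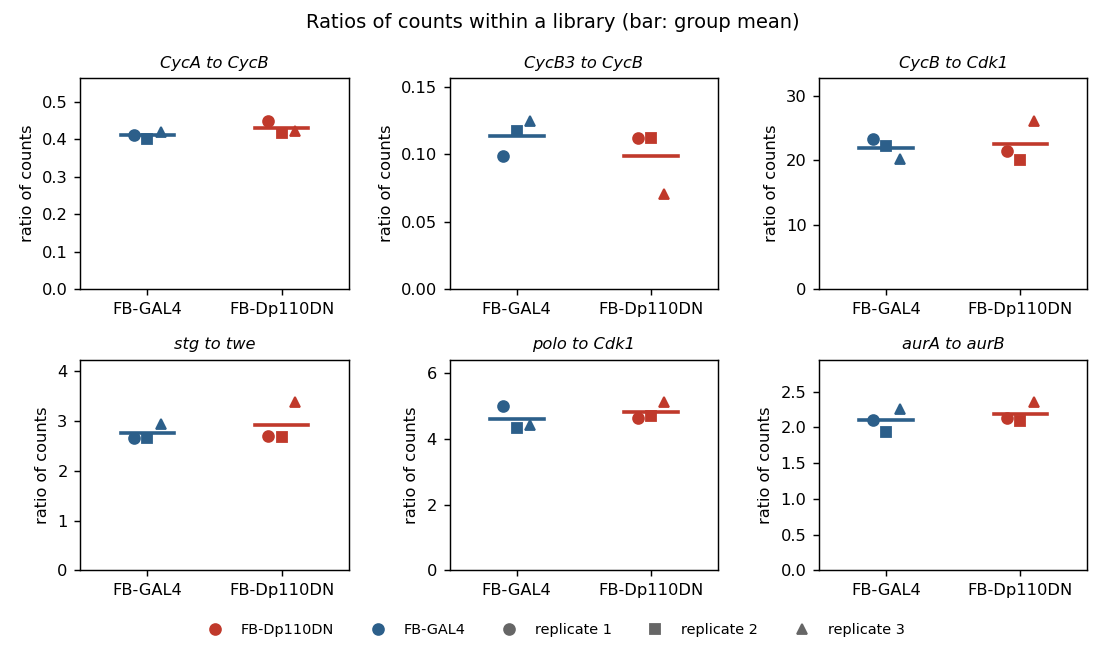
Ratio of raw counts of a pair of genes within each library, with axes from 0 and a bar at the group mean. The groups overlap in all 6 ratios, and the lowest point for CycB3 to CycB, 0.0707, is replicate 3 of FB-Dp110DN.

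Genes that act with these 9, together with replication licensing genes and other cyclins and Cdks, were read from 6 lists. Of 91 listed genes 85 were tested, and 82 had a lower estimate in FB-Dp110DN. The other 3 were trbl, fzr2 and CycG, at 0.17, 0.51 and 0.19 on the log2 scale, of which trbl and fzr2 are named after their values were seen. fzr2 had only 7 to 21 counts per library, and its SE was 0.46. None of the 85 passed the edgeR test, with 0 called lower and 0 called higher, while 64 had an unadjusted edgeR p-value under 0.05, all of them lower, where 12.5% of all tested genes were lower at that level. DESeq2 called 34 as lower, against 3.39% of all tested genes. The groups did not overlap, with FB-Dp110DN lower, for 73 of the 85, against 21.0%. Of all tested genes 46.5% had a lower estimate, and these shares apply beside the counts of each list.

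The list nearest to the 9 genes in its values was that of the passenger complex and other mitotic kinases, with 11 of 11 lower, a median log2 fold change of -0.82 and 5 of 11 called by DESeq2 (Incenp, mtrm, borr and, named after their values were seen, bora and Haspin). Incenp, the scaffold of the complex that holds aurB, had 43.7 ± 5.70 CPM in FB-Dp110DN and 87.4 ± 20.1 in FB-GAL4 (SD, n = 3), a log2 fold change of -0.98 (SE 0.21). mtrm (matrimony), which binds and restrains polo in oocytes, had 74.6 ± 13.7 against 133.9 ± 27.5 CPM, a log2 fold change of -0.84 (SE 0.21). gnu, a subunit of the PNG kinase of the egg, had a log2 fold change of -0.72 (SE 0.23).

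The chromosome machinery of cohesin, condensin and separase had 12 of 12 lower, a median of -0.88 and 8 called by DESeq2, where 3.39% of all tested genes were called lower. glu, the SMC4 subunit of condensin, had a log2 fold change of -0.95 (SE 0.19). The cohesin subunits SMC1 and vtd had smaller values of -0.37 (SE 0.14) and -0.33 (SE 0.12). Replication licensing genes, which act before S phase, had 12 of 12 lower with a median of -0.74 and 8 called by DESeq2, among them dup, dpa and Mcm5 at -0.99, -0.79 and -0.80. Orc3 was at 0 in all libraries and was left out of the tests, as was lmgA of the APC/C list. Whether a count of 0 here means an absent transcript or reads not assigned to the gene was not tested.

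The APC/C and spindle checkpoint had 22 of 23 lower with a median of -0.60, and DESeq2 called 9. Its 3 most abundant genes had log2 fold changes of -0.47 for Cdc27, -0.63 for the checkpoint gene Zw10 and -0.63 for APC7. Regulators of Cdk1 had a median of -0.40 with 9 of 10 lower and 1 called by DESeq2, Cks30A, a Cdk-binding protein named after its value was seen. Of these the phosphatase subunits mts and tws had -0.17 (SE 0.14) and -0.37 (SE 0.14), and endos, an inhibitor of that phosphatase, -0.43 (SE 0.16). The other cyclins and Cdks, most of which serve G1, S phase or transcription, had 16 of 17 lower, a median of -0.38 and 3 called by DESeq2, which were CycE and, named after their values were seen, CycD and Cdk2. In this list CycE, the S-phase cyclin, was at -1.05 (SE 0.26), CycT, a cyclin of transcription, at -0.20 (SE 0.13) and CycG at 0.19 (SE 0.14). The lists were not tested against each other.

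**Figure D4:**
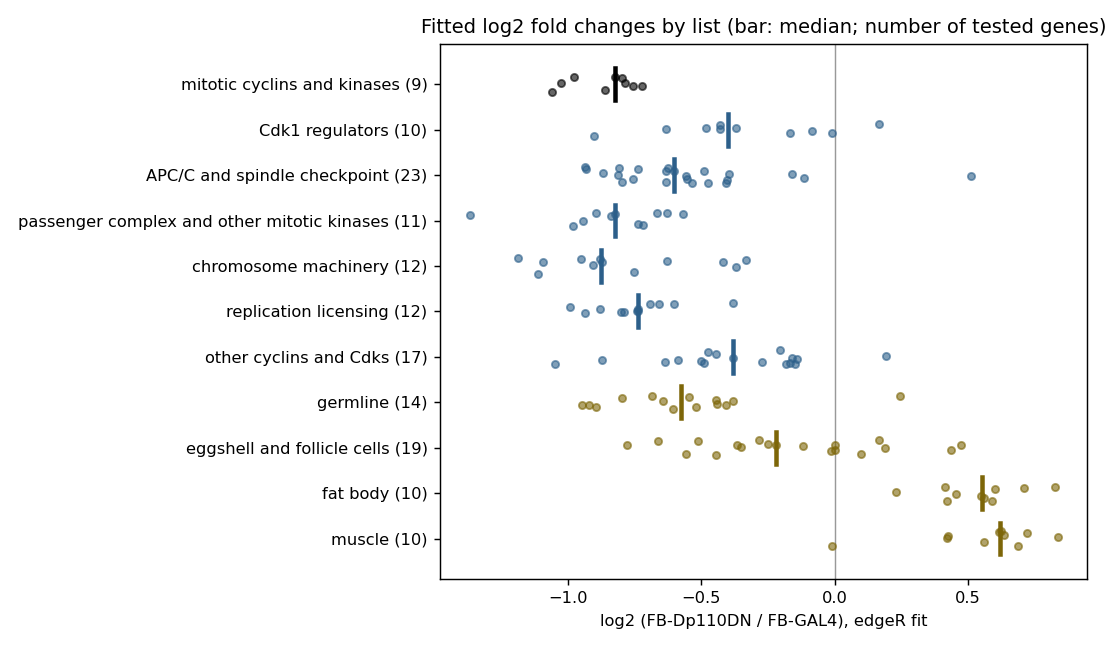
Fitted log2 fold change of each tested gene by list, with a bar at the list's median and the number of tested genes in brackets. The 9 mitotic cyclins and kinases lie between -1.06 and -0.72. The pathway lists have medians from -0.88 to -0.38 and the germline markers -0.58, whereas the medians of fat body and muscle markers lie above 0, at 0.55 and 0.62.

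Markers of the ovary were read beside these values, because in a pooled tissue fewer cells of a type and less RNA per cell cannot be told apart. Germline markers were present in every library, none at 0, and 13 of 14 had a lower estimate in FB-Dp110DN with a median log2 fold change of -0.58. Of the 14, 6 were lower at an unadjusted edgeR p-value under 0.05, against 12.5% of all tested genes, and DESeq2 called 4 as lower, against 3.39%. They summed to 1600, 1033 and 2135 CPM in FB-Dp110DN and to 2107, 2312 and 2189 CPM in FB-GAL4. For this sum, replicate 3 of FB-Dp110DN lay within the range of the controls, which was not so for any of the 9 mitotic genes. The largest parts of the sum in that library were osk at 641 and bru1 at 404 CPM. For 6 of the 14 markers, though, the groups did not overlap, with FB-Dp110DN lower, against 21.0% of all tested genes.

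The same pairing showed where the gene groups moved together. In pairs 1, 2 and 3 the median log2 difference of the germline markers was -0.42, -1.32 and -0.04, beside -0.47, -1.49 and -0.63 for the 9 mitotic genes. By these medians they were close in pairs 1 and 2 and apart in pair 3. Single germline markers went both ways in pair 3. Among them, named after their values were seen, bcd had 21.6 CPM in FB-Dp110DN and 35.3 in FB-GAL4, and orb 221 and 197. Markers of the eggshell and follicle cells had 12 of 19 lower, a median of -0.22 and pair medians of -0.31, -0.67 and 0.40, and they summed to 3737 to 6124 CPM in FB-Dp110DN and 4635 to 5825 CPM in FB-GAL4.

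The summed level of the 9 genes was 1529, 1016 and 1659 CPM in FB-Dp110DN and 2146, 2866 and 2213 CPM in FB-GAL4. Set against the summed germline markers of the same library, this gave 0.956, 0.983 and 0.777 in FB-Dp110DN and 1.02, 1.24 and 1.01 in FB-GAL4. The groups did not overlap in this ratio of sums, of which CycB makes up the greatest share. Gene by gene, in counts per 1000 germline marker counts, the groups overlapped for 8 of the 9. The exception was CycB, with 473, 487 and 415 in FB-Dp110DN and 521, 633 and 497 in FB-GAL4. The share of all tested genes with overlapping groups on this scale was not determined, so these counts have no background beside them. CycA stood at 213, 203 and 176 against 214, 254 and 209, and twe at 19.7, 20.8 and 10.5 against 20.8, 27.4 and 22.5. The mean log2 CPM of the 9 genes less that of the germline markers, which weights genes equally, overlapped too, at -0.37 to 0.06 in FB-Dp110DN and 0.04 to 0.35 in FB-GAL4. The part of the ovary in the lower mitotic transcripts was not tested. Fat body markers had 10 of 10 higher with a median log2 fold change of 0.55, and muscle markers 9 of 10 with 0.62. At an unadjusted edgeR p-value under 0.05, 2 fat body and 9 muscle markers were higher, against 1366 of 10398 tested genes. DESeq2 called 2 and 8 of them as higher, against 640 of 10398. The part of these tissues was not tested either.

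**Figure D5:**
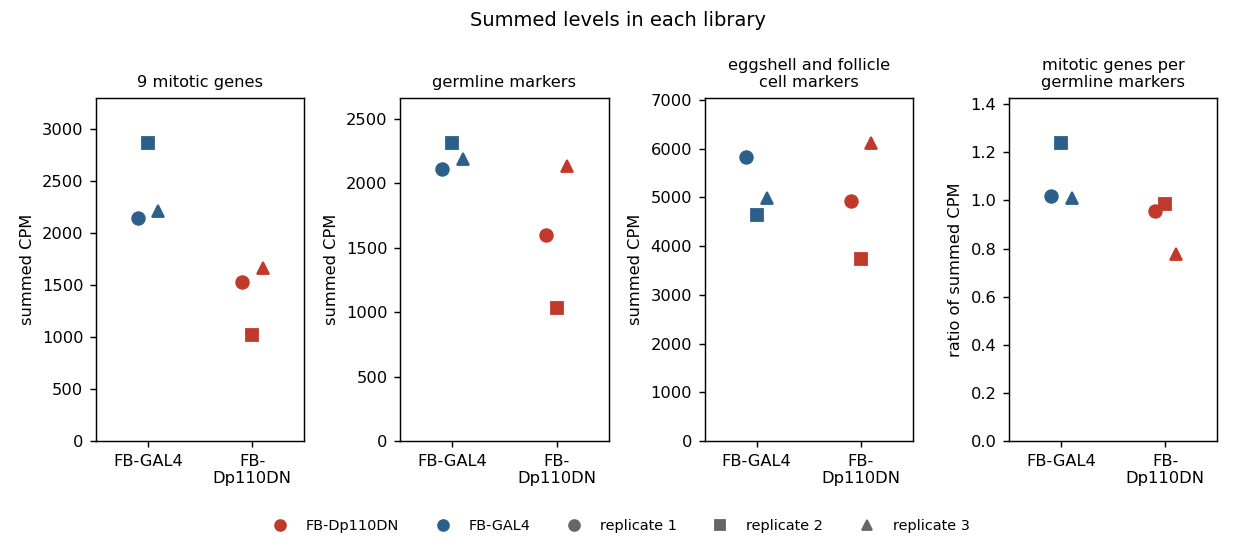
Summed CPM of the 9 mitotic genes, of germline markers and of eggshell and follicle cell markers in each library, and the ratio of the first to the second, with axes from 0. Replicate 3 of FB-Dp110DN reaches the control range for the sum of germline markers at 2135 CPM but not for the sum of the mitotic genes at 1659 CPM.

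Genes outside the set with the most similar profile were found as those whose log2 CPM over the 6 libraries, centred on its mean, differed least from the mean profile of the 9. The 5 closest were Septin5, borr, RhoGAP54D, CG8924 and Phs, with root mean square differences of 0.0440, 0.0442, 0.0457, 0.0511 and 0.0522 in log2 CPM, where the median of all tested genes was 0.568. borr (borealin), a subunit of the passenger complex with aurB and Incenp, had 25.2 ± 4.75 CPM in FB-Dp110DN and 48.5 ± 9.10 in FB-GAL4 (SD, n = 3). The members themselves lay between 0.0305 for Cdk1 and 0.162 for twe. Each contributes to the mean profile, so their closeness to it is partly built in. Among all tested genes their ranks ran from 1 for Cdk1 to 367 for twe, with CycB at 213 and CycA at 265.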

How the data were processed

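RNA was extracted by the authors from dissected fat bodies, and 1 ug of it entered a TruSeq mRNA preparation with 10 cycles of PCR, per the labels. Paired-end reads were aligned by the authors to BDGP5 with TopHat2 2.0.11, per the submitters' processing notes, and counted per gene with HTSeq. The version of HTSeq and its strand setting are not given in the sources used here. The deposited table held raw read counts per gene for each library. It also held the authors' DESeq2 comparison, fitted with processing day as a covariate: a mean signal, log2 fold changes with standard errors, a Wald score, and p-values with adjusted p-values. These columns by the authors were not used.

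edgeR 4.0.16 (R 4.3.3) was run on the counts with its quasi-likelihood test, TMM scaling and a block for replicate number, after filterByExpr had kept 10398 genes. Pairing rests on the study's methods, in which a mutant and a control sample shared a processing day. That the replicate number marks this day is not stated. Deviations of same-numbered libraries from their group means correlated across genes at 0.416, 0.189 and 0.590. Control replicates 2 and 3 carry the same description, so their columns were assigned by title. p-values were adjusted over all tested genes, and SE was obtained by dividing the size of a log2 fold change by the root of its F statistic. The study calls the samples biological repeats. Its methods and the labels differ in how many flies made up a sample. log2 CPM used a prior count of 2. Alternatives were voom in limma 3.58.1, the Wald test of DESeq2 1.42.0 on the filtered counts, its size factors in edgeR, a fit with no block, a minimum of 10 counts per library, no filter, an adjusted p of 0.1, and leaving out each pair. Scaling by library totals alone was added after the data were seen. The code was tested on simulated data.

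The 9 genes, lists and tests were chosen with earlier results of these data known. The genes named are the 9 members, Pi3K92E, the 3 most abundant genes of each list, any gene of a list called in edgeR (there were 0), and the 5 most similar profiles. Other genes of the lists were named after their values were seen, to identify small counts, unequal values or the largest parts of a sum. Orc3 and lmgA were named because they were at 0. Symbols came from the reference table, which matched 15002 of 15682 identifiers. The other 680 held 5.91% to 7.11% of a library's counts and stayed in the tests. Of the listed genes, 7 were matched through a synonym. The listed genes vih, Top2, Mcm3, Orc1, vas, wupA, PPO1 and esg were not analysed here. Markers of hemocytes, of gut together with gut progenitors, and of neurons were also read. Their medians were 0.36, 0.36 and 0.49, with 6 of 7, 8 of 9 and 4 of 4 higher. The lower gene of the gut list was Delta, its gene of gut stem cells, at -0.80 (SE 0.18). Its adjusted p-values were 0.157 in edgeR and 0.0166 in DESeq2. With esg not analysed, the gut median rests mainly on other genes and does not describe gut progenitors. The part of gut progenitors in the lower mitotic transcripts was not tested. The reference annotation is of the later build BDGP6 and served for names, arms, exon lengths and overlaps.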

Additional observations from a re-analysis of the deposited data

How the results depend on the processing

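All 9 genes kept a lower estimate in each of the 10 alternative fits, and their median log2 fold change stayed between -1.04 (library totals only) and -0.56 (without replicate 2). With no replicate block it was -0.82, and the block changed no call of the 9. The count of called members was 0 in all fits except the DESeq2 Wald test, with 8, and the fits that left out a pair, where it ran from 0 to 9. Over all tested genes the count was 0 with no replicate block, 993 under the DESeq2 Wald test and 9 without a filter, and ran from 0 to 875 over the fits that left out a pair. The cause was not tested. Scaling by library totals moved the median of all genes by -0.22 on the log2 scale, and the median of the 9 genes by a like amount. The ratio of CycB3 to CycB ran from -0.44 to 0.06 on the log2 scale and that of CycB to Cdk1 from -0.13 to 0.12 when a pair was left out, each turning in sign without replicate 3 (0.0605 and -0.133). The lowest count of the 9 genes in a library was 219 (aurB).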

Other observations

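Some related genes with unequal values were noticed after the values were seen, and no difference between them was tested. fzy, the Cdc20 activator of the APC/C in mitosis, had 32.3 ± 5.87 CPM in FB-Dp110DN and 61.9 ± 12.1 in FB-GAL4 (SD, n = 3), a log2 fold change of -0.94 (SE 0.21). fzr, the Cdh1 activator that also serves cells leaving the cycle, had 25.9 ± 1.56 against 28.0 ± 0.815 CPM, a log2 fold change of -0.12 (SE 0.13). Of the Cdk-binding Cks proteins, Cks30A had a log2 fold change of -0.90 (SE 0.27) and Cks85A -0.01 (SE 0.15). pim (securin) and thr, a subunit of fly separase, had -1.19 (SE 0.23) and -1.11 (SE 0.24). Wee1 and Myt1, the kinases that hold Cdk1 inactive, had -0.43 (SE 0.15) and -0.48 (SE 0.18).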
